A study of Rattus norvegicus with 4 samples.

Results

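Broad acetylated regions were long stretches of the rat genome on which H3K27Ac peaks lay side by side in cultured oligodendrocytes. The H3K27Ac peaks of the vehicle list and of the LPC list were pooled, and peaks at most 1 kb apart were joined. A joined region was counted as broad when it held peaks of both lists and spanned 5 kb or more. Of 30610 joined regions, 21252 held peaks of both lists and 858 of those were broad, which is 4.04% of them. The regions were thus chosen by the positions of the H3K27Ac peaks of both conditions, and their H3K27Ac values are given as a description with no test. The Olig2 lists played no part in the choice.

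The study ran chromatin immunoprecipitation sequencing (ChIP-seq) on oligodendrocytes grown from rat brain, with 1 library for each antibody (H3K27Ac or Olig2) in each condition, 4 libraries in all. Mixed glia were kept in B104 medium for 2 days, and the precursors isolated from them mechanically were expanded with PDGF-AA at 10 ng/ml and bFGF at 20 ng/ml, then differentiated with the hormone T3 (15 nM) plus CNTF (10 ng/ml). One condition received lysolecithin (LPC, a lipid detergent used to strip myelin) for 6 h and the other vehicle, at a labelled LPC concentration of 12.5 mM whose unit could not be checked. Both conditions shared every other step, the cells were cultures without axons, and no library had a replicate.

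H3K27Ac is an acetyl mark that the coactivators p300 and CBP place on nucleosomes at active enhancers and promoters. Most active elements carry it as a short block, with a nucleosome-poor centre where transcription factors bind and acetylated nucleosomes on either side. Long unbroken stretches of the mark are known from strongly active loci, often beside genes that define a cell type. Olig2 is a basic helix-loop-helix factor that binds E-box sequences, is needed to make oligodendrocytes and recruits the chromatin remodeller Brg1 during their differentiation.

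The vehicle H3K27Ac list held 38902 peaks and the LPC H3K27Ac list 38721. The vehicle Olig2 list held 4965 peaks and the LPC Olig2 list 3229. The lists give positions alone, so read depth and peak height are unknown. A difference between conditions therefore cannot be told apart from a difference in depth, enrichment or calling. Intervals below are 95% intervals for counting error only, with neighbouring regions treated as independent. An annotation of rn4, the rat build of the files, was not used here, so regions carry no gene names and the label oligodendrocyte was not checked against marker genes.

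The broad regions summed to 6.59 Mb. Their median span was 6.47 kb, with quartiles at 5.55 and 8.16 kb, and the longest spanned 36.5 kb. They took up 8.86% of the vehicle H3K27Ac peaks and 15.0% of the bases those peaks covered. In the LPC list the shares were 7.27% and 13.6%. No joined region of 5 kb or more was built from a single list. The peaks of each list reached over 5 kb or more in 603 regions, those of LPC alone in 168, those of vehicle alone in 55, and in 32 the span was reached only by the lists together.

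Membership depended finely on the threshold. The shortest member lay on chromosome 5 (20596037 to 20601041, 5005 bp) and the next on chromosome 20 (19251813 to 19256821, 5009 bp). Vehicle peaks covered 4472 bp of the former and 2942 bp of the latter, while LPC peaks covered 4879 and 4472 bp. The next 3 members, on chromosome 5 (141414288 to 141419298 and 137013139 to 137018151) and chromosome 13 (19199983 to 19204997), spanned 5011, 5013 and 5015 bp. Just outside lay 5 regions of 4986 to 4996 bp on chromosomes 14, 1, 2, 3 and 9. Vehicle peaks covered 2564 to 4970 bp of these and LPC peaks 4138 to 4926 bp. The values on either side of the threshold overlapped.

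The longest broad region lay on chromosome 7 (123646058 to 123682580, 36523 bp). Vehicle peaks covered 33662 bp of it in 12 pieces, and LPC peaks 34076 bp in 8 pieces. The second, on chromosome 10 (58595432 to 58630814, 35383 bp), was covered over 31217 bp in vehicle and 34194 bp in LPC. Each list had 1 dominant peak there, 16779 bp long in vehicle and 18258 bp in LPC. Both stretches were nearly filled in either condition, over 88.2% of their span or more.

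The next 3 of the longest regions were all on chromosome 2. The one at 180276873 to 180311639 had 14 vehicle peaks over 29591 bp but 7 LPC peaks over 31917 bp. The one at 120954282 to 120987956 was the fullest of the 10 longest, with 32892 bp under vehicle peaks and 33219 bp under LPC peaks. The one at 12255500 to 12286570 had 6 peaks in each list, covering 28696 and 29432 bp. In all 3 the LPC cover was the larger.

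The remaining 5 of the 10 longest lay on chromosomes 3 and 1. On chromosome 3 they were at 149456926 to 149487273 (vehicle cover 26760 bp, LPC cover 29017 bp), at 102104099 to 102128104 (18725 and 19021 bp) and at 25640344 to 25663309 (19993 and 21188 bp). On chromosome 1 they were at 135245365 to 135270975 (24076 and 23859 bp) and at 44917867 to 44943426 (20956 and 21522 bp). The first chromosome 1 region was the only one of the 10 with less cover in LPC. Across the 10, the ratio of LPC to vehicle cover stayed between 0.99 and 1.10.

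**Figure D1:**
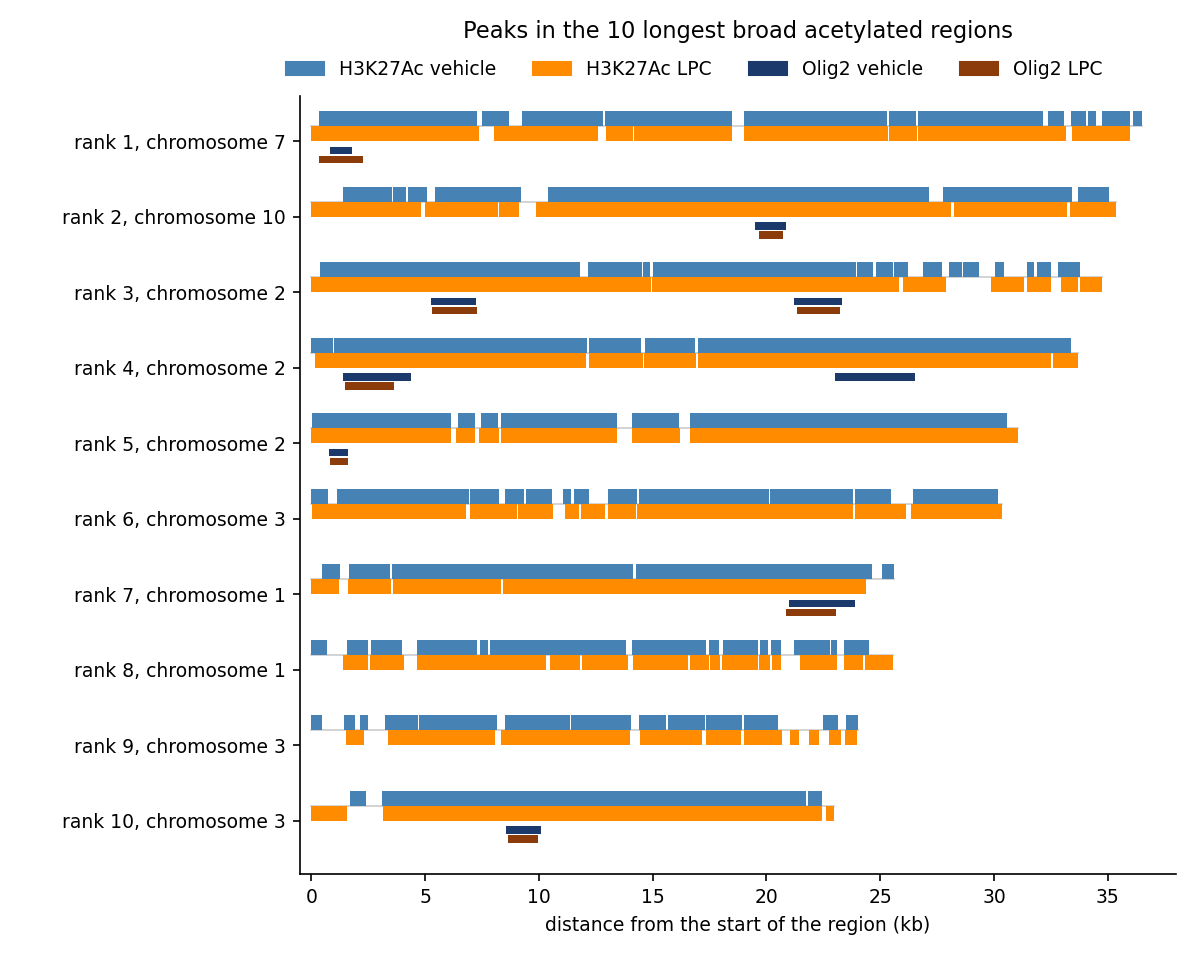
Peaks inside the 10 longest broad regions, each drawn from its own start, with distance in kb on the horizontal axis and 1 row per region. Blue and orange bars are H3K27Ac peaks of vehicle and LPC, and the darker thin bars below are Olig2 peaks. Both H3K27Ac lists fill most of every row, and 7 of the 10 regions hold Olig2 peaks.

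In 772 of the 858 broad regions over 50% of the span lay under peaks of both lists. Over the summed span, vehicle peaks covered 78.2% and LPC peaks 86.1%. Bases under peaks of both lists made up 72.2%, bases under LPC peaks alone 13.8%, under vehicle peaks alone 5.97%, and bases under neither 7.97%. In the other 20394 regions with peaks of both lists, the parts under both and under LPC alone were 65.3% and 21.4%. Median vehicle cover of a broad region was 5134 bp, with quartiles of 4208 and 6700 bp. Median LPC cover was 5552 bp, with quartiles of 4757 and 7327 bp.

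Cover was larger in LPC in 648 of the 858 broad regions (75.5%, 72.5 to 78.4), smaller in 209 and equal in 1. The share over all regions with peaks of both lists was 71.8%. The median ratio of LPC to vehicle cover was 1.10, and the summed cover gave 1.10 as well. In the other shared regions the summed cover gave 1.17, and over the whole lists 1.21. The ratios lay close together: 43.6% of broad regions were within 10% of equal cover, against 26.5% of the other shared regions, and the middle 90% ran from 0.87 to 1.55, against 0.67 to 2.48. Shared regions of 2 to 5 kb lay between, with 31.9% within 10% of equal cover and a middle 90% of 0.78 to 2.12. Among broad regions the middle 90% narrowed with span, from 0.85 to 1.59 at 5 to 7.5 kb to 0.91 to 1.31 at 10 kb or more.

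A 1.5-fold excess of LPC cover was found in 57 broad regions (6.64%, against 21.6% of all regions with peaks of both lists). The reverse was found in 4 (0.47%, against 4.73%). In shared regions of 2 to 5 kb these shares were 15.7 and 2.10%. The share with the LPC excess fell with span, from 8.74% of the 572 regions of 5 to 7.5 kb to 3.14% of the 159 regions of 7.5 to 10 kb and 1.57% of the 127 regions of 10 kb or more. The 57 regions with the LPC excess had a median span of 5927 bp, against 6.47 kb for all broad regions. Vehicle Olig2 peaks lay in 12 of them (21.1%, 11.4 to 33.9), against 40.2% of all broad regions. The 57 regions also had less vehicle cover, with a median of 2930 bp against 5134 bp in all broad regions. The Olig2 shares were not compared at equal vehicle cover.

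**Figure D2:**
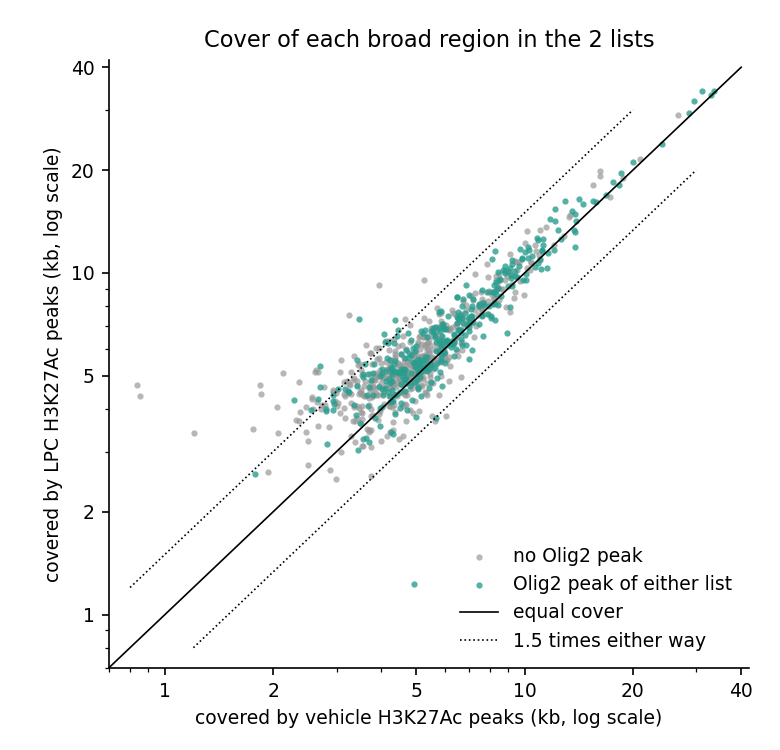
Bases covered by H3K27Ac peaks in each of the 858 broad regions, vehicle on the horizontal and LPC on the vertical axis, both in kb on log scales. The solid line marks equal cover and the dotted lines 1.5-fold differences, and green points hold an Olig2 peak of either list. Points lie mostly just above the solid line and spread out at the short end, where 57 pass the upper dotted line and 4 the lower.

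The largest excess of LPC cover was on chromosome 13 (19188082 to 19194923, 6842 bp). A single vehicle peak covered 835 bp at its left end, and 2 LPC peaks covered 4692 bp further right, 5.62 times as much. It was the only broad region in which no base lay under both lists, so the joining of neighbours made it shared. A second broad region followed 5059 bp away (19199983 to 19204997), with 2310 bp covered in vehicle and 3701 bp in LPC.

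The next largest excess was on chromosome 2 (217842323 to 217847609), where vehicle peaks covered 850 bp and LPC peaks 4352 bp. It was followed by chromosome 18 (61980997 to 61986076), with 1207 and 3405 bp, by chromosome X (80630918 to 80636972), with 1841 and 4712 bp, and by chromosome 7 (96388688 to 96395536), with 2129 and 5094 bp. In each of these 4 the vehicle list had 2 or 3 short peaks, of which the longest measured 989 bp, and the LPC list 4 or 5. None of the 5 regions with the highest ratio held an Olig2 peak of either list.

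The lowest ratio was on chromosome 14 (4362830 to 4368069, 5240 bp). Vehicle peaks covered 4918 bp of it and LPC peaks 1232 bp, a ratio of 0.25, and the LPC peaks ended 3925 bp short of the vehicle edge on the right. It held a vehicle Olig2 peak and no LPC Olig2 peak. That Olig2 peak was atypical: at 5217 bp it was the longest of the vehicle Olig2 list, whose median was 1058 bp, and it spanned nearly the whole region. The next lowest ratios were much nearer to equal cover: 0.63 on chromosome 1 (30081660 to 30088072), 0.65 on chromosome 2 (115519464 to 115526033), 0.66 on chromosome 8 (26752293 to 26758625) and 0.68 on chromosome 5 (137013139 to 137018151). Of these 4, the chromosome 8 region alone held an Olig2 peak, and it was present in both Olig2 lists. The chromosome 14 region thus stood well below the rest.

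Broad regions were built of fewer and longer peaks in the LPC list. They held 3448 vehicle peaks with a mean length of 1493 bp and 2814 LPC peaks with a mean length of 2014 bp. The number of peaks was lower in LPC in 472 regions (55.0%, against 26.0% of all regions with peaks of both lists). It was equal in 232 and higher in 154. A region with 1 vehicle peak cannot have fewer in LPC, which held for 3.50% of broad and 54.6% of the other shared regions. In shared regions of 2 to 5 kb, 36.4% had fewer LPC peaks. The shares were not compared at equal peak number. Mean peak length in the other shared regions was also larger in LPC (1094 bp) than in vehicle (860 bp). A broad region consisted of 1 unbroken vehicle peak in 30 cases, of 1 LPC peak in 79 and of 1 peak in each list in 13. Peaks of 5 kb or more occurred in 90 regions in vehicle, in 189 in LPC and in 69 in both.

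The inner gaps, meaning the stretches between neighbouring peaks of 1 list inside a region, were fewer in LPC but of similar length. There were 2590 in vehicle, summing to 926 kb, and 1956 in LPC, summing to 673 kb, a ratio of summed length of 0.73. The median vehicle gap measured 164 bp, with quartiles of 68 and 496 bp. The median LPC gap measured 172 bp, with quartiles of 70 and 511 bp. Per 10 kb of span there were 3.93 vehicle gaps and 2.97 LPC gaps in broad regions, and 3.11 and 2.42 in the other shared regions. Gaps of at most 200 bp, about the length of a nucleosome with its linker, made up 1417 of the vehicle and 1058 of the LPC gaps.

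Many gaps of 1 list lay under an unbroken peak of the other. LPC peaks covered 1141 of the vehicle gaps whole (44.1%, 42.1 to 46.0, against 47.5% over all regions with peaks of both lists), and 284 vehicle gaps held no LPC cover at all. Vehicle peaks covered 434 of the LPC gaps whole (22.2%, 20.4 to 24.1, against 22.3%), and 686 LPC gaps held no vehicle cover. Whole cover went with shortness: it was found for 76.7% of vehicle gaps of up to 100 bp, 48.2% of those of 100 to 200 bp, 26.6% of those of 200 to 500 bp and 11.1% of those of 500 to 1000 bp. For LPC gaps the corresponding values were 45.6, 19.4, 10.6 and 1.60%. Gaps over 1 kb, 224 in vehicle and 126 in LPC, always hold some cover of the other list, because the joining distance would otherwise have split the region.

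**Figure D3:**
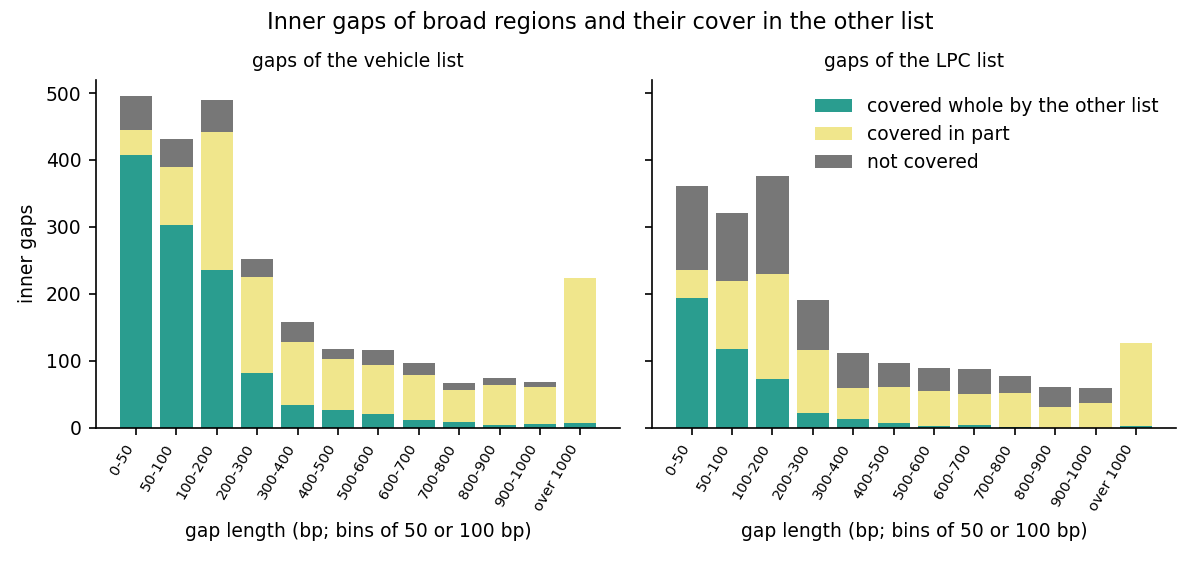
Number of inner gaps of broad regions by gap length in bp, for the vehicle list on the left and the LPC list on the right, with colours for cover by the other list. Bins are 50 bp wide up to 100 bp and 100 bp wide up to 1000 bp. Green, gaps covered whole by the other list, makes up most of the shortest vehicle gaps (711 of 927 up to 100 bp) and a smaller part of the shortest LPC gaps (311 of 682).

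The longest vehicle gap inside a broad region measured 4590 bp, on chromosome 7 (96388688 to 96395536), the region with the fifth highest cover ratio. The next was 3496 bp on chromosome 14 (102722453 to 102733518), a region with 3925 bp of vehicle and 9193 bp of LPC cover. A gap of 3168 bp followed on chromosome 1 (212719220 to 212732787). Gaps of 3023 and 2711 bp came next, inside chromosome 17 (78240021 to 78252649) and inside chromosome 10 (97173767 to 97180521). The longest LPC gap in the same 5 regions ran from 414 to 1347 bp. Neither Olig2 list had a peak in any of the 5.

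The outer edges of broad regions lay further out in LPC more often than in vehicle. An edge was called level when both lists ended within 50 bp of each other. Of 1716 edges, 927 were further out in LPC (54.0%, 51.6 to 56.4, against 50.6% of the edges of all regions with peaks of both lists), 496 further out in vehicle (28.9%) and 293 level. In shared regions of 2 to 5 kb the LPC share was 53.5% (52.7 to 54.3), so it was not particular to broad regions. The median edge lay 90.5 bp further out in LPC, with quartiles of 95.3 bp inside and 403 bp outside the vehicle edge. Where the LPC edge was further out, the median extension was 365 bp, and where the vehicle edge was, 279.5 bp.

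Both edges were further out in LPC in 258 regions, both in vehicle in 74 and both level in 27, while 260 regions had 1 edge out in each list. The side made little difference, with 453 left and 474 right edges further out in LPC. An outermost peak was often a separate one: 203 of the 1716 outermost LPC peaks (11.8%) met no vehicle peak, and 149 of the outermost vehicle peaks (8.68%) met no LPC peak. Bases under LPC peaks alone were divided nearly evenly, with 433 kb beyond the vehicle edges and 478 kb inside vehicle gaps. Bases under vehicle peaks alone came to 189 and 204 kb in the same places. In the other shared regions, which have few gaps, 82.7% of the bases under LPC peaks alone lay beyond the vehicle edges.

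**Figure D4:**
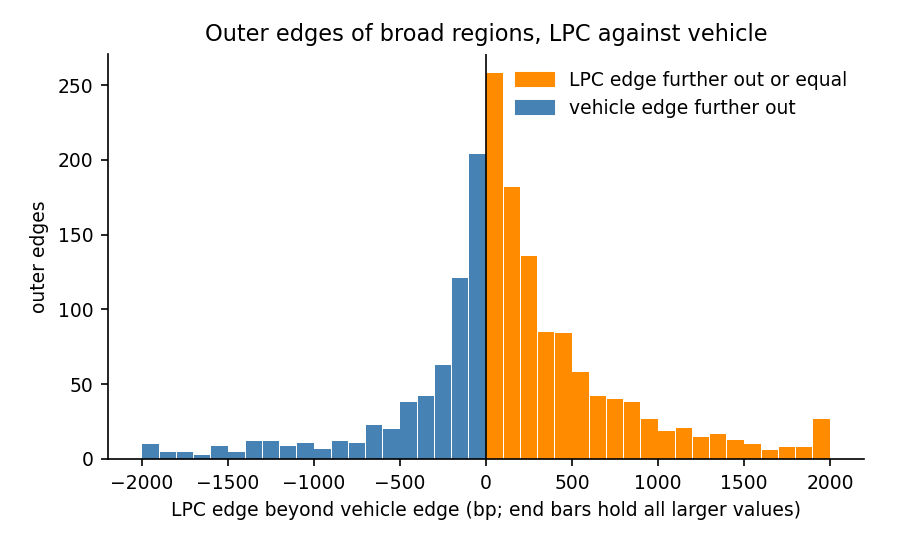
Distance in bp by which the LPC edge lies beyond the vehicle edge, for the 1716 outer edges of broad regions, in bins of 100 bp with larger values gathered in the end bars. Orange bars are edges further out in LPC or equal and blue bars edges further out in vehicle. The orange side is the larger and its tail the longer, with 144 edges over 1 kb further out in LPC against 81 in vehicle.

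Olig2 peaks were found in many broad regions, in both conditions. A vehicle Olig2 peak lay in 345 of the 858 (40.2%, 36.9 to 43.6, against 12.6% of all regions with peaks of both lists). An LPC Olig2 peak lay in 251 (29.3%, 26.2 to 32.4, against 8.39%). Olig2 peaks of both lists were present in 245 regions, of vehicle alone in 100, of LPC alone in 6 and of neither in 507. The shares rose with span, from 33.9% of regions of 5 to 7.5 kb to 47.8% of those of 7.5 to 10 kb and 59.1% of those of 10 kb or more in vehicle. In LPC they rose from 24.1 to 32.7 and 48.0%.

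Per length, broad regions held about as many Olig2 peaks as the other shared regions. There were 61.0 vehicle Olig2 peaks per Mb (55.2 to 67.3) in broad regions and 63.7 (61.2 to 66.3) in the other shared regions. Counted by midpoints, which takes out overlaps at the ends of short regions, the densities were 60.7 (54.9 to 67.0) and 61.6 (59.1 to 64.2). For LPC Olig2 midpoints they were 41.9 (37.1 to 47.2) and 40.3 (38.3 to 42.4). In both lists the intervals of the groups overlapped, while the share of regions with Olig2 rose with span. The shares were not compared at equal span or equal cover.

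**Figure D5:**
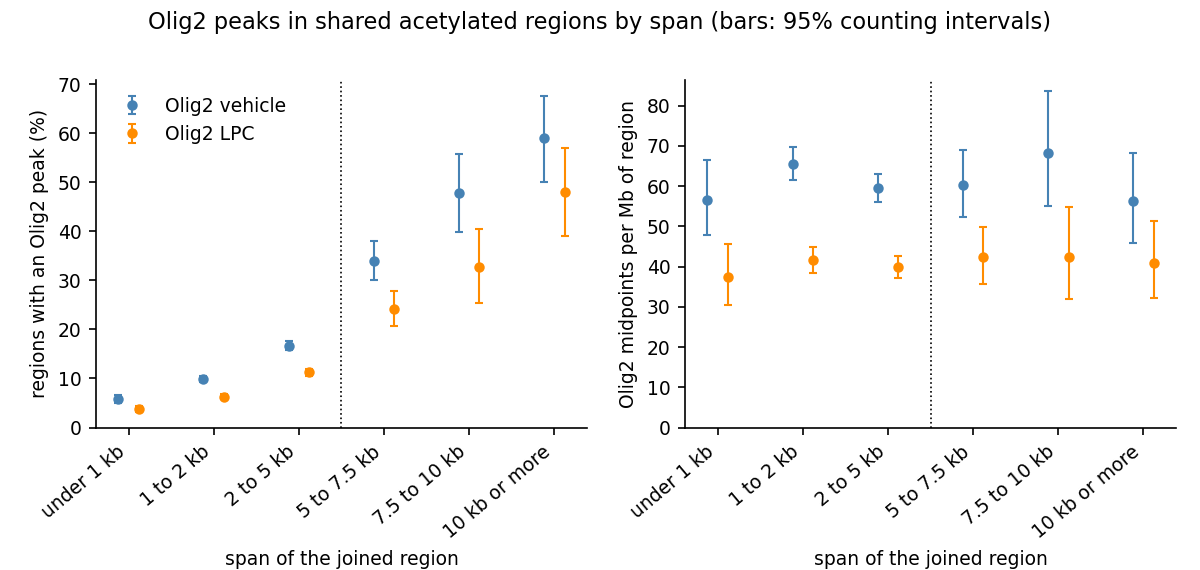
Left, percent of shared acetylated regions with an Olig2 peak, and right, Olig2 midpoints per Mb of region, by span of the region, for vehicle (blue) and LPC (orange). Bars are 95% counting intervals, and the dotted line marks 5 kb, with broad regions to its right. The share climbs from 5.78% under 1 kb to 59.1% at 10 kb or more in vehicle, while the density in vehicle stays between 56.2 and 68.3 per Mb.

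Olig2 peaks in broad regions were present in both lists about as often as elsewhere. Of 402 vehicle Olig2 peaks there, 271 were met by an LPC Olig2 peak (67.4%, 62.6 to 72.0, against 64.0% of the whole vehicle Olig2 list) and 131 were not. In the other shared regions 1520 of 2361 were met (64.4%, 62.4 to 66.3), a difference of 3.03 percentage points (-2.06 to 7.85). Outside every acetylated region the share was 62.9% (60.6 to 65.1), a difference of 4.54 points (-0.69 to 9.49). Both intervals include 0, so no difference was detectable. Only 6 of the 276 LPC Olig2 peaks in broad regions met no vehicle Olig2 peak.

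Olig2 peaks found in both lists were the longer ones. In broad regions their median length in vehicle was 1446 bp, against 1254 bp for those found in vehicle alone. In the other shared regions the medians were 1221 and 1108 bp. Each of the 271 peaks had 1 LPC partner, which was the longer of the pair in 79 cases (29.2%), with a median ratio of LPC to vehicle length of 0.92.

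Most broad regions with Olig2 had 1 Olig2 peak. In vehicle 294 regions had 1, 45 had 2 and 6 had 3, and in LPC 228 had 1, 21 had 2 and 2 had 3. Of the 51 regions with 2 or more vehicle Olig2 peaks, 20 had all of them in the LPC list too, 26 some and 5 none. Of the 108 Olig2 peaks in these regions 72 were met in LPC (66.7%), close to the 67.4% of all vehicle Olig2 peaks in broad regions.

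The 2 regions with 3 Olig2 peaks in both lists lay on chromosomes 11 and 15. The former (58699658 to 58714880) spanned 15223 bp. Its 3 vehicle Olig2 peaks measured 2144, 1360 and 2434 bp, and their LPC partners 1193, 1331 and 1629 bp. H3K27Ac covered 13849 bp of the region in vehicle and 13154 bp in LPC. The latter (60362139 to 60369391) spanned 7253 bp, and its Olig2 peaks measured 1265, 1916 and 881 bp in vehicle, with LPC partners of 1175, 1956 and 1018 bp. The LPC peak was the longer at 2 of the 3 places on chromosome 15 and at none on chromosome 11.

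Next came 3 regions with 3 vehicle and 2 LPC Olig2 peaks. On chromosome 3 (8814141 to 8830941) the vehicle Olig2 peak without an LPC partner was the first and longest (8814284 to 8816969, 2686 bp). On chromosome 2 (79680391 to 79695079) it was also the first (79685238 to 79687036, 1799 bp), with 2 shared peaks directly to its right. On chromosome 18 (24372389 to 24382532) it was the last and shortest (24380600 to 24381456, 857 bp). Vehicle H3K27Ac peaks covered 13801, 13690 and 8442 bp of these regions, and LPC peaks 11899, 13391 and 10041 bp. The missing Olig2 peak was long or short, and the H3K27Ac cover of the whole region was higher or lower in LPC.

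Among the 10 longest regions, 9 vehicle Olig2 peaks lay in 7 regions, and 8 of the 9 were met in LPC. The exception was on chromosome 2 (120977299 to 120980803, 3505 bp). In the longest region, on chromosome 7, the single Olig2 peak sat near the left end and was longer in LPC (1914 bp) than in vehicle (939 bp). The chromosome 3 regions at 149456926 and 102104099 and the chromosome 1 region at 44917867 held no Olig2 peak, although H3K27Ac peaks covered 18725 bp or more of each in vehicle.

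The median ratio of LPC to vehicle cover was 1.07 (quartiles 0.998 and 1.18) with Olig2 peaks of both lists, 1.07 (0.98 and 1.17) with vehicle Olig2 peaks alone and 1.10 (1.01 and 1.24) with none. LPC cover was the larger in 74.3% (68.3 to 79.6), 67.0% (56.9 to 76.1) and 77.7% (73.8 to 81.3) of them. A 1.5-fold excess of LPC cover was found in 11 of the 245 regions with Olig2 peaks of both lists (4.49%, 2.26 to 7.89), 1 of the 100 with vehicle Olig2 peaks alone (0.0253 to 5.45%) and 44 of the 507 with none (8.68%, 6.38 to 11.5). Among the 6 regions with LPC Olig2 peaks alone, 1 had the excess (16.7%, 0.421 to 64.1). The medians thus lay close together, while large excesses were more frequent without Olig2 than with vehicle Olig2 alone or both lists. The share with vehicle Olig2 alone rests on 1 region with the excess, and the intervals without Olig2 and with both lists overlapped. The H3K27Ac lists also chose the regions, so these shares are a description with no test. A high ratio goes with low vehicle cover, and the shares were not compared at equal cover. Regions without Olig2 were shorter, with a median span of 6187 bp against 7099 and 6827 bp.

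Inside broad regions, Olig2 peaks lay on acetylated bases. On average 93.8% of a vehicle Olig2 peak was covered by vehicle H3K27Ac peaks and 96.3% by LPC ones. Of the summed span of broad regions, these peaks covered 78.2 and 86.1%. The whole Olig2 peak was covered in 192 of 402 cases by vehicle (47.8%) and in 283 by LPC (70.4%) H3K27Ac peaks. For Olig2 peaks found in both lists these shares were 51.7 and 74.2%, and for those found in vehicle alone 39.7 and 62.6%. The midpoint lay on a vehicle H3K27Ac peak in 358 cases, in a vehicle inner gap in 38, beyond the outermost vehicle peak in 4 and outside the region in 2.

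Per length, Olig2 midpoints were concentrated in short gaps and almost absent from long ones. Vehicle H3K27Ac peaks carried 69.5 vehicle Olig2 midpoints per Mb. Vehicle inner gaps as a whole carried 41.0 per Mb, 0.59 times as many (0.41 to 0.83). With peaks joined at 500 bp the ratio was 0.84 (0.54 to 1.26), an interval that includes 1. In the other shared regions gaps as a whole went the other way, at 1.52 times the density on peaks (1.33 to 1.73). The split by gap length, made after the values had been seen, divided the gaps sharply. Gaps of up to 100 bp carried 332 midpoints per Mb, 4.78 times the density on peaks (2.65 to 7.99, from 15 midpoints). Gaps of 100 to 200 bp carried 157 per Mb (2.25 times, 1.11 to 4.08, from 11) and gaps of 200 to 500 bp 64.6 per Mb (0.93 times, 0.46 to 1.68, from 11).

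The 646 vehicle gaps over 500 bp, 640 kb in all, carried 1 midpoint (0.0225 times the density on peaks, 0.000567 to 0.126). Within the other shared regions the ratio also fell with gap length, with 3.66, 2.31, 1.95 and 0.26 times the density on peaks in the same length classes. For gaps of the LPC list in broad regions, those of 100 to 200 bp carried 2.19 times the density on LPC peaks (0.94 to 4.36) and those of up to 100 bp 0.89 times (0.11 to 3.25, from 2 midpoints). An Olig2 peak is many times longer than these gaps, so its midpoint places the binding site only roughly.

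Fewer Olig2 midpoints than flanking positions lay under vehicle H3K27Ac peaks, by an amount that depended on the flank chosen. Around the 271 Olig2 peaks present in both lists, vehicle H3K27Ac peaks lay over 97.0% of positions 200 bp to the left, 89.7% of midpoints and 95.9% of positions 200 bp to the right. LPC H3K27Ac peaks lay over 97.8, 97.4 and 98.2% of them. Around the 131 Olig2 peaks found in vehicle alone the values were 88.5, 87.8 and 90.8% in vehicle and 93.9, 90.8 and 92.4% in LPC. In vehicle these were 116, 115 and 119 positions, so the midpoint differed little from its flanks at 200 bp. At 300 bp to the left and right the vehicle values were 92.4 and 93.9% (121 and 123 positions), above the midpoint. For the Olig2 peaks present in both lists they were 96.3 and 94.1%, also above the midpoint. Of the 38 vehicle gaps with an Olig2 midpoint, LPC peaks covered 22 whole (57.9%, 40.8 to 73.7), against 43.8% (41.9 to 45.8) of the 2552 gaps without one, so the intervals overlapped.

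Olig2 peaks were spread through the body of broad regions but thin at their ends. Of 400 vehicle Olig2 midpoints inside a region, 22 (5.50%, 3.48 to 8.21) lay in the outermost 10% of the span at either end, where an even spread would put 20%. The next bands inward, each the same width, held 22, 24, 27.5 and 21%. An even spread is only a rough yardstick, since an Olig2 peak of median length (1386 bp) centred close to an end would reach past the region. The effect of peak length on these shares was not tested. Thin ends were not particular to broad regions. In shared regions of 2 to 5 kb, 82 of 1168 midpoints lay in the outer 20% of the span at either end, against 110 of 400 in broad regions. The median midpoint in broad regions lay 2087 bp from the nearer edge.

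Broad regions were found on every chromosome of the lists, 107 on chromosome 1 and 15 on X. They made up 3.06% (chromosome 6) to 5.28% (chromosome 18) of the shared regions of an autosome and 3.39% (1.91 to 5.52) of those of X. The summed cover was larger in LPC on each chromosome, with ratios from 1.05 on chromosome 11 to 1.18 on chromosome 12 and 1.09 on X. The share of regions with more LPC cover ran from 16 of 32 on chromosome 14 to 21 of 23 on chromosome 20. On X, 2 of 15 broad regions held a vehicle Olig2 peak and none an LPC one, against 343 of 843 with a vehicle peak on the autosomes.

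Broad regions tended to have acetylated neighbours. The nearest other acetylated region lay a median of 4.44 kb away, against 11.6 kb for the other shared regions, and within 10 kb for 71.3% of them, against 45.8%. Of 837 pairs of consecutive broad regions, 76 lay within 10 kb of each other. In these pairs LPC cover was the larger in both members in 37 cases, in 1 member in 30 and in neither in 9.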

How the data were processed

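ChIP-seq peaks of H3K27Ac and Olig2 in vehicle and LPC cultures were analysed, 1 library each. The authors deposited 1 list of peak positions per library (3 columns, with no score), called with MACS 1.4.2 on rn4, per the submitters' processing notes. No source used here names the aligner, the calling threshold, the control library or the depth.

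Intervals were joined, clipped and overlapped (at least 1 bp) in Python 3.11.15 with numpy 2.4.6, pandas 2.3.3 and SciPy 1.17.1. The joining gave the same 30610 regions as bedtools 2.31.1, and 2000 simulated regions were recovered with every measure (100%). Shares carry Clopper-Pearson intervals, differences of shares Newcombe intervals, and densities exact Poisson or conditional binomial intervals, all at 95%. An Olig2 peak was assigned to the region it overlapped most. With 1 library per group no p-value was computed. Coordinates are 1-based. Gene names and sequences were not used here, because the tables at hand describe another rat assembly.

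Regions named in the text are the 10 longest, the 5 with the highest and the 5 with the lowest cover ratio, the 5 with the most Olig2 peaks, the 5 with the longest vehicle gap and the 5 on each side of the threshold. The members, lists and rules were chosen with earlier results of these data known. Alternatives changed the joining distance (500 bp, 2 kb), the span (4 kb, 7.5 kb), the chromosomes, the minimum peak length (500 bp), the Olig2 overlap rule, the edge tolerance and the handling of gaps.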

Additional observations from a re-analysis of the deposited data

Results flagged for a closer look

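In broad regions H3K27Ac cover was higher in LPC and Olig2 peaks were fewer. The bases covered by H3K27Ac peaks in LPC were 1.10 times those in vehicle, whereas the number of Olig2 peaks was 0.69 times (276 against 402). Over the whole lists the ratios were 1.21 for H3K27Ac cover and 0.65 for Olig2 peaks, and both lay nearer to 1 in broad regions. The whole-list cover includes regions with peaks of 1 list only, which the rule keeps out of broad regions. In the other shared regions the cover ratio was 1.17. No interval was computed for these ratios. With 1 library on each side the difference between the antibodies was not tested, and depth cannot be told apart from occupancy.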

How the results depend on the processing

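Of 78 values under 13 alternative settings, 48 stayed within the counting interval of the reported value, (for ratios of length) kept its first 3 digits or, for counts, stayed within 1.5 times of it, 29 moved and 1 reversed. The number of broad regions (858) became 1377 when peaks were joined at 2 kb, 1540 at a span of 4 kb and 286 at 7.5 kb. The pooled ratio of LPC to vehicle cover (1.10) was 1.09 with joining at 500 bp, 1.13 at 2 kb, 1.11 at a span of 4 kb, 1.09 at 7.5 kb and 1.13 with H3K27Ac peaks of 500 bp or longer. The ratio of inner gap length (0.73) was 0.585 and 0.837 with joining at 500 bp and 2 kb, 0.716 and 0.690 at 4 and 7.5 kb, 0.723 on autosomes, 0.707 with the longer peaks and 0.723 with gaps of up to 200 bp closed first. With the longer peaks, LPC cover was the larger in 79.0% of regions and the LPC edge further out in 56.6%. The share of edges further out in LPC was 38.1% with a tolerance of 200 bp and 63.4% with none.

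The share of regions with a vehicle Olig2 peak was 35.0% with joining at 2 kb, 32.1% at 4 kb and 52.8% at 7.5 kb, and with an LPC Olig2 peak 24.8, 22.9 and 39.5%. Joining at 2 kb gave 52.4 vehicle Olig2 peaks per Mb. The density ratio of Olig2 midpoints, gaps over peaks (0.59), was 0.84 (0.54 to 1.26) with joining at 500 bp and 0.33 with joining at 2 kb. Chosen after seeing the data, gaps of up to 200 bp alone gave 3.24 (2.09 to 4.83), the reverse direction, and longer gaps 0.21. The share of vehicle Olig2 peaks met in LPC, and its difference from other regions, stayed within their intervals in every setting run. No paired analysis was possible because each group holds 1 library, and for the same reason no replicate could be left out. Whether depth moves any of these values was not tested, since the lists hold none.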

Other observations

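Within broad regions the share of vehicle Olig2 peaks met in LPC differed between the ends and the body, a split chosen after the values had been seen. It was 57.3% (63 of 110, 47.5 to 66.7) for midpoints in the outer 20% of the span at either end and 71.7% (208 of 290, 66.2 to 76.8) for the rest, a difference of -14.5 percentage points (-25.0 to -4.07). Olig2 peaks near the ends were shorter, with a median of 1168 bp against 1451 bp. Among the longer Olig2 peaks (1386 bp, their median, or more) the shares were 54.1% (20 of 37) and 78.5% (128 of 163), and among shorter ones 58.9% (43 of 73) and 63.0% (80 of 127). In shared regions of 2 to 5 kb the same split gave 62.2% (51 of 82) and 66.2% (719 of 1086), a difference of -4.01 points (-15.2 to 6.13). With a fixed distance of 1 kb from the edge in place of the 20%, broad regions gave 64.1% (25 of 39) and 68.1% (246 of 361), a difference of -4.04 points (-20.4 to 10.0). The difference between broad and shorter regions was not tested.

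The 6 broad regions with an LPC Olig2 peak and no vehicle one were spread over 5 chromosomes. Chromosome 2 had a pair (13416567 to 13426280 and 144677332 to 144682792). Single ones lay on chromosome 3 (8832123 to 8840305) and chromosome 5 (101398768 to 101410344). The last were on chromosome 6 (39492636 to 39499016) and on chromosome 11 (31201613 to 31211205). They are named because they are so few, and were chosen after their values were seen. H3K27Ac cover was larger in LPC in 5 of them, and the chromosome 3 region had the widest difference, 4374 bp in vehicle and 7293 bp in LPC. That region begins 1181 bp after the chromosome 3 region with 3 vehicle Olig2 peaks, in which LPC cover was the smaller (11899 against 13801 bp).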
